A study of Mus musculus with 13 samples.

Results

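Immediate early genes outside the AP-1 family were read in chemically induced squamous tumours of mouse skin. The set consists of 10 named genes (Egr1, Egr2, Egr3, Ier2, Ier3, Ier5, Nr4a1, Nr4a2, Myc and Zfp36), and every probe set whose only gene symbol in the platform annotation was one of these names was taken. This gave 14 probe sets for 9 of the 10 genes, out of 45037 probe sets and 17097 genes on the array. Zfp36 has no probe set of its own in that annotation and is not analysed here. There were 6 arrays of tumours from G9a WT mice and 7 from G9a cKO (conditional knockout) mice. The sample titles number the replicates and do not say whether each came from a different mouse. The question the arrays address is how tumours without G9a differ from tumours with it. G9a is the histone H3 lysine 9 methyltransferase encoded by Ehmt2. Both groups received the same treatment from 8 weeks of age: 200 µl of the carcinogen DMBA (0.25 mg/ml) or of the tumour promoter TPA (0.02 mg/ml) in acetone on the back skin weekly for 6 weeks, then TPA alone for at most 20 weeks. No source used here names the Cre driver of the knockout, the mouse strain or the litters, and p-values measure only the spread between these arrays.

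Immediate early genes are transcribed within minutes of a growth factor, stress or phorbol ester signal, without new protein synthesis. ERK signalling acts on them through serum response factor (SRF) and its ETS partners, which bind the CArG box of the serum response element, and through CREB, which binds the cAMP response element. TPA activates protein kinase C and is a classic inducer, and several of these genes were first isolated as TPA-induced sequences. Their mRNAs decay quickly, so a tumour's level depends on how recently it was stimulated. No source used here gives the interval between the last TPA application and collection of the tumour.

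The proximal promoters of Egr2, Nr4a1 and Nr4a2 are shown because these 3 genes varied widely between tumours and RefSeq sequences were at hand for them. Each is the 130 bases before a RefSeq start on build GRCm38.p6, 5′ to 3′ on the gene's strand: chr10:67537739-67537868 (+) for Egr2, chr15:101266716-101266845 (+) for Nr4a1 and chr2:57124004-57124133 (-) for Nr4a2. Capitals mark the CArG box and the letters TGACG, the shorter core of the cAMP response element, on either strand.
Egr2: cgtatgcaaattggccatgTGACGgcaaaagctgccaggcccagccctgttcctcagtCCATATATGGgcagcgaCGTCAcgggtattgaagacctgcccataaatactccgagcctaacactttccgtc
Nr4a1: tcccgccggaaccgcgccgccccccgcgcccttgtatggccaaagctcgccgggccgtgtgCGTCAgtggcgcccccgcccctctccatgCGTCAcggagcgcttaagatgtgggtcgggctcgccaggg
Nr4a2: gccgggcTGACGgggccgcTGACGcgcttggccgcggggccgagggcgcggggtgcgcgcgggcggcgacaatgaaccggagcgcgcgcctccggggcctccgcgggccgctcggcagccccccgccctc
Of 32851 promoter entries searched over the 250 bases before the start, 1.47% held a CArG box and 17.8% held TGACG on either strand. Egr2 has 5 entries, and 4 of them held a CArG box. In 3 of these the box is the same site, the one shown above, because their starts lie close together. The Nr4a1 and Nr4a2 entries held no CArG box. The matches are letters in a window and were not tested as binding sites. Of the 10 genes, 6 had a promoter entry, and proteins were not used here.

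The arrays carried a pattern within groups that bears on every test. Neighbouring arrays of a group mirrored each other around the group mean in 6 pairs, with correlations of their deviations between -0.953 and -0.881 over all probe sets. The array outside these pairs, cKO replicate 1, lay almost on its group mean, with an SD of deviations of 0.0585 against 0.176 to 0.218 for the other 12. No label records such an adjustment. Each difference was therefore tested with limma without a covariate and again with a term for each neighbouring pair, and the words rose and fell are kept for genes that passed in both. The pairs were set from these correlations after a first pairing in strict deposit order had been fitted and its calls seen. Mirrored neighbours leave little spread between pairs, and neither fit can restore spread that the deposited values lack. P-values, intervals and the separation of the groups may therefore look too favourable in both fits. The label check held on 1 of 2 Ehmt2 probe sets: 1460692_PM_at fell by 2.33 on the log2 scale in cKO tumours (adjusted p = 1.3e-09, limma), while 1426888_PM_at differed by 0.13 (adjusted p = 0.163). Taken as a mean, the 10 keratinocyte markers were abundant, at 10.14 to 10.78 in WT and 9.95 to 11.05 in cKO tumours (log2). Krt5 was the brightest of them, at 12.62 ± 0.05 in WT and 12.75 ± 0.03 in cKO tumours (SD). Not every marker was abundant in each tumour: the lowest WT value was 6.44, for Krt1, and the lowest cKO value 6.28, for Krt10.

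Few of the immediate early genes passed the test between the genotypes, and the spread within groups was wide for some, chiefly Egr2 and 3 of the Nr4a2 probe sets. Without a covariate 3 of the 14 probe sets passed an adjusted p of 0.05, all higher in cKO, where 47.9% of all probe sets passed and 24.4% passed as higher. With the pair term 1 of 14 passed, an Nr4a2 probe set, against 27% of all probe sets. At an unadjusted p under 0.05, 4 of 14 passed without the term, against 54.6% of all probe sets, and 2 with it, against 40.7%. The groups did not overlap for 1 of 14, against 24.2% of all probe sets. Of the 14 differences, 7 were positive and 7 negative, with a median of -0.03 on the log2 scale against 0.0 over all probe sets. The median size of the differences, whatever their direction, was 0.22 for the members and 0.15 for all probe sets, while the median SD within groups was 0.282 and 0.109. These medians were not matched for expression level. The largest difference, 0.46, is a 1.37-fold difference, and 12.1% of all probe sets had a difference at least as large in size.

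**Figure D1:**
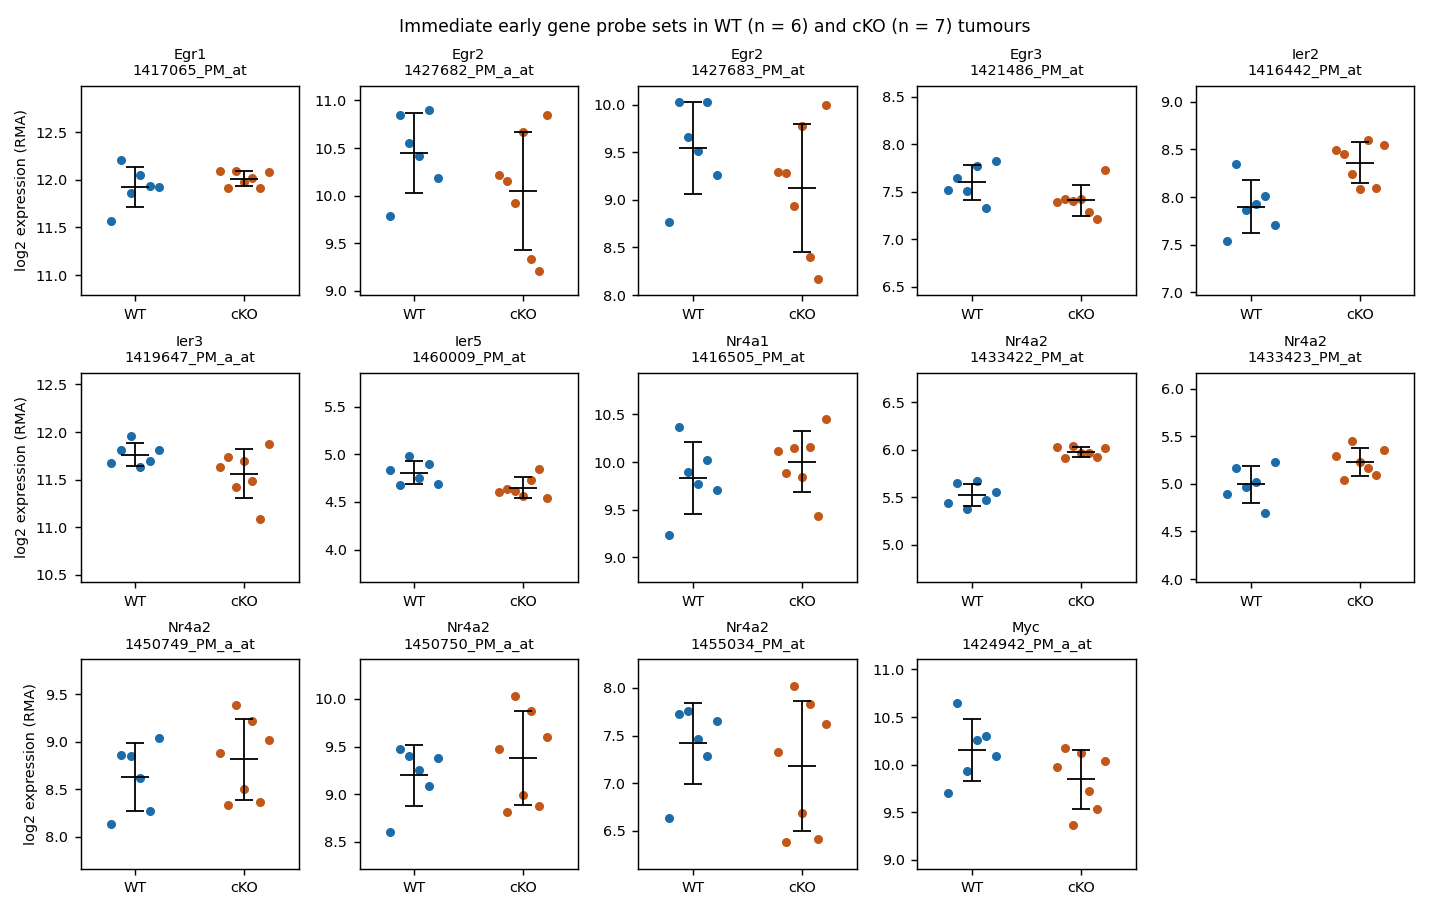
Log2 expression (RMA) of the 14 probe sets on each array, WT (6 points) and cKO (7 points), with bars for the mean and SD; every panel spans the same range of log2 values. Only Nr4a2 1433422_PM_at has groups that do not overlap, and the widest spread is within the groups for Egr2 and for 3 Nr4a2 probe sets.

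**Figure D2:**
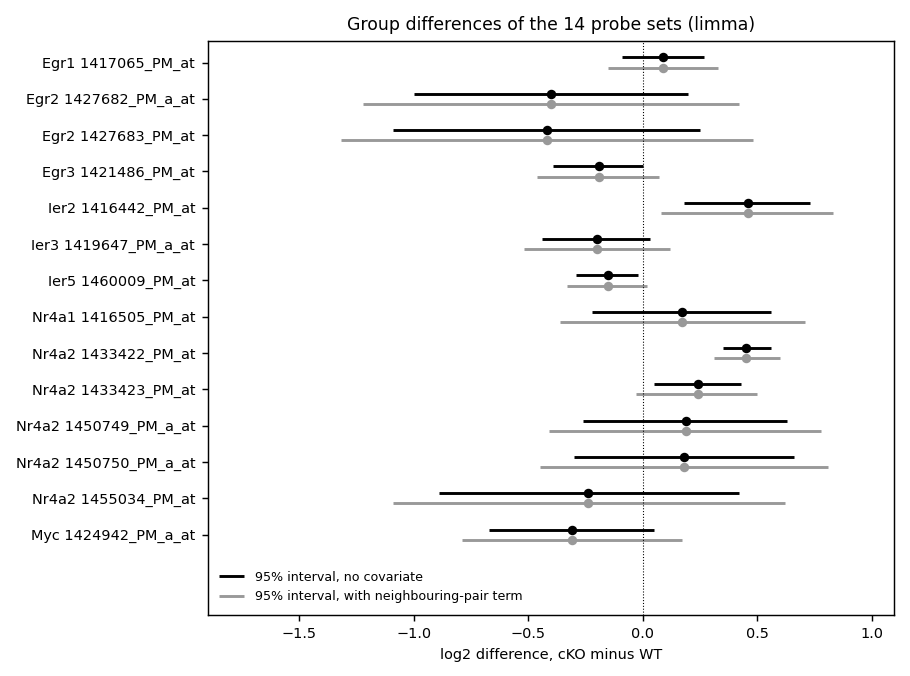
Log2 difference (cKO minus WT) of each probe set with its 95% interval from limma, without a covariate (black) and with the neighbouring-pair term (grey). The intervals of Nr4a2 1433422_PM_at lie above 0 in both fits, from 0.35 to 0.56 and from 0.31 to 0.60, and so do the unadjusted intervals of Ier2.

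The EGR genes encode zinc finger transcription factors that bind GC-rich sites, and none of their 4 probe sets passed the test in either fit. Egr1, the family's best-known mediator of growth factor signals, ranged from 11.57 through a median of 11.93 to 12.21 in WT tumours (log2), and from 11.91 through 12.02 to 12.09 in cKO tumours. All 7 cKO values lay inside the WT range. The difference was 0.09 ± 0.08 (SE; adjusted p = 0.394, limma), with a 95% interval of -0.09 to 0.27, or 0.94-fold to 1.20-fold. The interval with the pair term was -0.15 to 0.33. The difference was 0.02 without WT replicate 2, 0.14 without WT replicate 4, 0.16 with the replicate block and 0.19 with array weights.

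Egr2, a regulator of myelination and of lymphocyte activation, was the most variable member. Its probe set 1427682_PM_a_at read 9.79, 10.48 and 10.90 as the lowest, median and highest WT values and 9.21, 10.15 and 10.85 in cKO tumours. The cKO arrays 6 and 8 lay below every WT array, at 9.33 and 9.21, whereas cKO replicate 9 (10.85) and cKO replicate 5 (10.67) sat near the top of the WT range. The difference was -0.40 ± 0.28 (SE; adjusted p = 0.256, limma), with a 95% interval of -1.0 to 0.20, so that a 2-fold decrease lies at the interval's edge. It was -0.26 without cKO replicate 8 and -0.19 with array weights. The second probe set, 1427683_PM_at, followed it closely (r = 0.998 for deviations from the group mean over 13 arrays) and differed by -0.42 (adjusted p = 0.281). The within-group SD of these probe sets, 0.538 and 0.595, exceeded that of 97.7% and 98.4% of all probe sets.

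Egr3, which is induced alongside Egr1 and Egr2 in stimulated lymphocytes and neurons, read 7.33, 7.59 and 7.82 in WT and 7.21, 7.40 and 7.73 in cKO tumours (lowest, median, highest). Of the 7 cKO arrays, 1 exceeded the WT median. The difference was -0.19 ± 0.09 (SE; adjusted p = 0.0939, limma; 0.242 with the pair term). It was larger and passed without cKO replicate 9, the highest cKO array (-0.25, adjusted p = 0.0227), and without WT replicate 8 (-0.25, adjusted p = 0.0326). After quantile normalization it was smaller, at -0.07 (adjusted p = 0.538). Among other EGR genes and partners, Nab2, an EGR corepressor that EGR factors themselves induce, differed by -0.38 (adjusted p = 0.0405, and 0.154 with the pair term), and Nab1 did not pass.

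The NR4A genes encode orphan nuclear receptors whose activity is set mainly by how much is made. Nr4a1 (Nur77) read 9.23, 9.83 and 10.37 in WT and 9.43, 10.12 and 10.45 in cKO tumours (lowest, median, highest). The groups covered nearly the same range, with 6 of 7 cKO arrays above the WT median. Its difference was 0.17 ± 0.18 (SE; adjusted p = 0.452, limma), with a 95% interval of 0.86-fold to 1.48-fold. It was 0.05 without WT replicate 2, the lowest WT array, and 0.10 without cKO replicate 9, but 0.28 without WT replicate 4 and 0.27 without cKO replicate 8. With array weights and after quantile normalization it was 0.32, and with the replicate block 0.27, and it passed in none of these.

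Nr4a2 (Nurr1) was read by 5 probe sets that gave different outcomes. Probe set 1433422_PM_at lay between 5.38 and 5.67 in WT tumours (median 5.51) and between 5.91 and 6.04 in cKO tumours (median 5.97). All 7 cKO arrays lay above all 6 WT arrays. It rose by 0.45 ± 0.05 (SE; 1.37-fold; adjusted p = 1.36e-05, limma, and 0.00337 with the pair term), and its cKO arrays were close together, with an SD of 0.05 against 0.12 in WT. Probe set 1433423_PM_at, designed from the same database entry, had means of 4.99 ± 0.19 for WT and 5.23 ± 0.15 for cKO (SD), a difference of 0.24 that passed without the pair term (adjusted p = 0.0423) and missed with it (0.158).

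The other 3 Nr4a2 probe sets, designed from other database entries, did not pass. Probe set 1450750_PM_a_at, the brightest for this gene, read 8.60, 9.31 and 9.47 in WT and 8.81, 9.47 and 10.03 in cKO tumours (lowest, median, highest). Its cKO values fell both above and below the WT range's middle, with 4 of 7 above the highest WT array, and the difference was 0.18 ± 0.22 (SE; adjusted p = 0.524, limma). It was 0.06 without WT replicate 2, 0.07 without cKO replicate 3 and 0.10 without cKO replicate 6, but 0.28 without cKO replicate 2, 0.27 with array weights and 0.34 after quantile normalization. Probe set 1450749_PM_a_at differed by 0.19 (adjusted p = 0.479), and 1455034_PM_at by -0.24 (adjusted p = 0.544). Over the alternatives they ranged from 0.09 (without WT replicate 2 or cKO replicate 3) to 0.34 (quantile normalization) and from -0.39 (without WT replicate 2) to -0.09 (array weights), without passing. These 3 moved together across tumours within groups, with r of 0.952 to 0.995 over 13 arrays, whereas 1433422_PM_at followed them at r of 0.445 to 0.471. No source used here places the probe sets on the transcript, and whether the probe sets' differences differ from each other was not tested. The mean levels of 1433422_PM_at and 1433423_PM_at lay below 6.17, the highest of 23 nonspecific control probe sets, and above 4.29, the upper quartile of these controls.

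The IER genes encode small nuclear or membrane-associated proteins with little in common beyond rapid induction. Ier2 read 7.54, 7.90 and 8.35 in WT and 8.08, 8.45 and 8.60 in cKO tumours (lowest, median, highest). All 7 cKO arrays exceeded the WT median and 4 exceeded the highest WT array, while the groups overlapped through WT replicate 4. The difference was 0.46 ± 0.13 (SE; 1.37-fold, 95% interval 1.13-fold to 1.66-fold), with an adjusted p of 0.0103 (limma). With the pair term the adjusted p was 0.0714, and with the arrays paired in strict deposit order, the pairing fitted first, it was 0.0428. Without WT replicate 2, the lowest array, the difference was 0.39 (adjusted p = 0.023).

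Ier3 (IEX-1), an NF-κB and p53 target that influences cell survival and ERK signalling, read 11.63, 11.75 and 11.96 in WT and 11.09, 11.63 and 11.87 in cKO tumours. Of the 7 cKO arrays, 4 lay below the lowest WT value, and cKO replicate 8 was the lowest of all at 11.09. The difference was -0.20 ± 0.11 (SE; adjusted p = 0.145, limma), with a 95% interval of -0.44 to 0.03. Without cKO replicate 8 it was -0.12, and after quantile normalization -0.13. Ier5, a regulator of the heat shock factor HSF1, was dim, at 4.80 ± 0.12 in WT and 4.65 ± 0.11 in cKO tumours. Its difference of -0.15 just missed the threshold without the pair term (adjusted p = 0.0545) and had an adjusted p of 0.174 with it. It passed in 6 of 22 alternatives. These were median centring (-0.17, adjusted p = 0.0463), quantile normalization of the deposited values (-0.18, adjusted p = 0.0349) and array weights (-0.20, adjusted p = 0.00398). The others left out WT replicate 4, WT replicate 9 or cKO replicate 8. Its level also lies below the highest nonspecific control.

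Myc, the transcription factor that drives ribosome production and cell growth, read 9.70, 10.18 and 10.65 in WT and 9.36, 9.97 and 10.17 in cKO tumours (lowest, median, highest). None of the 7 cKO arrays reached the WT median, yet 5 of them lay inside the WT range. The difference was -0.31 ± 0.17 (SE; 1.24-fold lower; adjusted p = 0.139, limma; 0.297 with the pair term). Without WT replicate 2, the lowest WT array, it was -0.40 (adjusted p = 0.0590). It was -0.14 with array weights and with the replicate block, and -0.17 after quantile normalization.

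Within the groups, most pairs of members had a positive correlation, though not all. Over 9 genes, each read by its brightest probe set, the 36 gene pairs had a median correlation of 0.369 for deviations from the group mean over 13 arrays, and 14 pairs had r over 0.5. Ier2 and Nr4a1 had the highest r, 0.853, followed by Egr1 and Nr4a1 at 0.803 and Egr2 and Ier3 at 0.729. Ier5 ran the other way, with r down to -0.789 against Egr3, and accounted for most of the 9 pairs with r below 0. WT replicate 2 was the lowest WT array in 9 of 14 probe sets, covering 6 of the 9 genes, and its mirrored neighbour WT replicate 4 was the highest in 5. In the cKO group replicate 8 was lowest in 5 and its neighbour replicate 9 highest in 5. These correlations are descriptions: neighbouring arrays mirror each other, so 13 arrays hold fewer independent values. No median for pairs of other genes is given here, and whether the members moved together more than other genes was not tested.

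**Figure D3:**
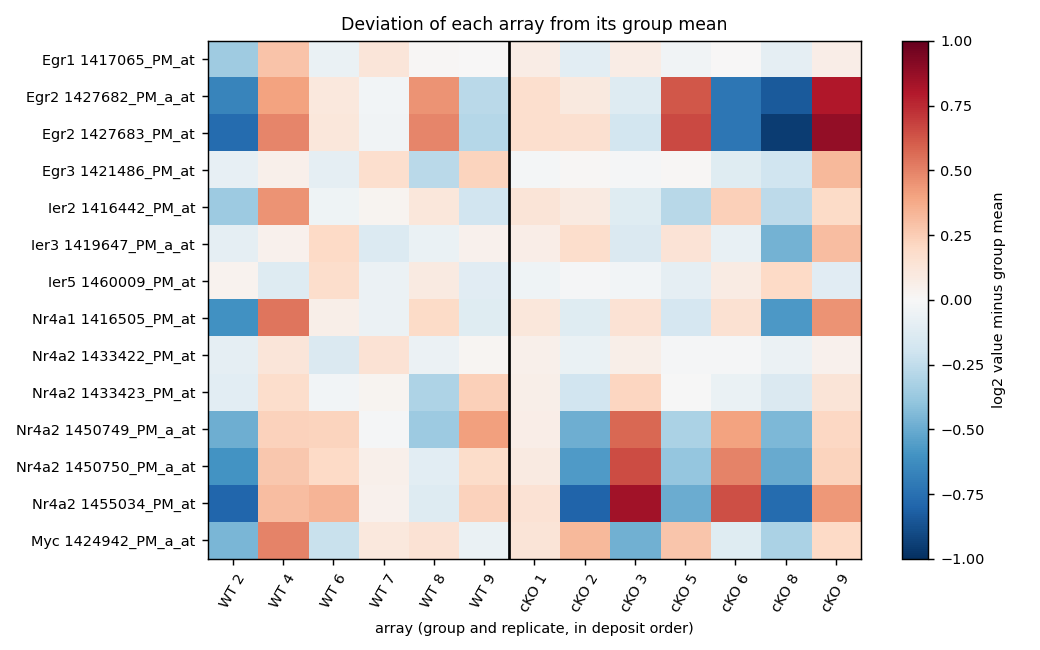
Log2 value minus the group mean for each probe set (rows) on each array (columns, in deposit order; the line separates WT from cKO). WT 2 is low across most probe sets and WT 4 high, and cKO 1 lies within 0.17 of its group mean in all 14, where other cKO arrays reach 0.96.

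**Figure D4:**
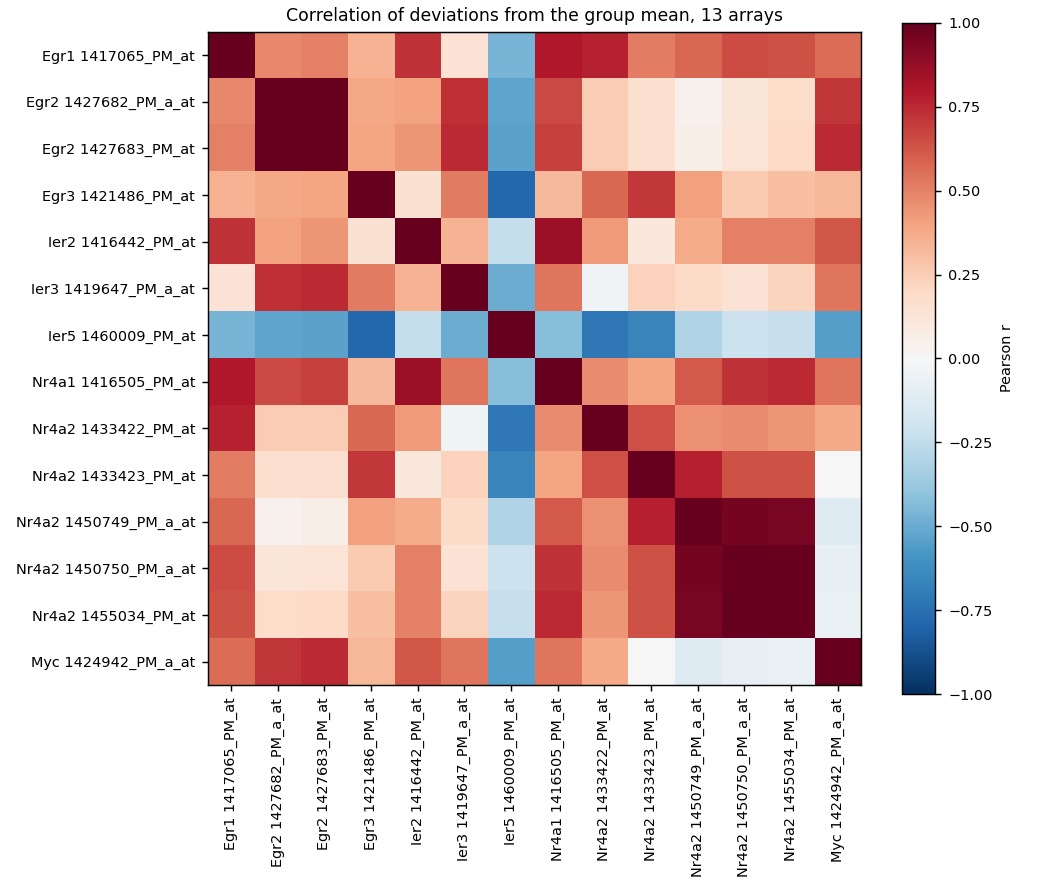
Pearson r of deviations from the group mean over 13 arrays for every pair of the 14 probe sets. Both Egr2 probe sets form a tight block (r = 0.998), as do 3 Nr4a2 probe sets (r of 0.952 to 0.995), and Ier5 is negative against all others.

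Of the member probe sets, 7 of 14 exceeded the 90th percentile of within-group SD over all probe sets, and 5 did so among probe sets of similar level. These 5 read only Egr2 (1427682_PM_a_at and 1427683_PM_at) and Nr4a2 (1450749_PM_a_at, 1450750_PM_a_at and 1455034_PM_at), and the probe sets of each gene moved together. The remaining member probe sets lay between percentiles 16.6 and 89.3 of their level, with Egr1 at 49.6 and Egr3 at 39.5.

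Among 12829 other genes with a mean above 4.29, the upper quartile of nonspecific controls, the closest profiles of deviations over 13 arrays included further immediate early genes in 2 cases. Nr4a1 was matched best by Fosb (r = 0.967) and Junb (r = 0.956), both AP-1 genes. Ier3 was matched best by Atf4 (r = 0.965), a stress response factor, and Btg1 (r = 0.950). The nearest genes to the others were in none of the lists used here. They were Itsn1 and Phf1 for Egr1 (r = 0.941 and 0.938) and Rmnd5a and Arhgef11 for Egr2 (0.970 and 0.968). For Egr3 they were Npas3 and Pyy (0.949 and 0.934), and for Ier2 Rad52 and Igdcc4 (0.929 and 0.907). For Ier5 they were Tmem17 and Harbi1 (0.927 and 0.905), for Nr4a2 Ddhd1 and Actb (0.930 and 0.921), and for Myc Krtap21-1 and Rab34 (0.968 and 0.958). Each match is the best of 12829 genes, and every member had a best r of 0.927 to 0.970. Fosb was thus no closer to Nr4a1 than Krtap21-1 was to Myc, and the mirrored neighbours limit these values too.

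Genes around this set in the same pathways had calls in both directions. Over 123 measured genes of 11 lists, without the members, 12 were higher and 39 lower without the pair term, and 7 and 16 with it. Of all genes read the same way, by the probe set of highest mean, 46.5% passed (26.2% with the pair term): 26.1% were higher and 20.4% lower (15.2% and 11% with the pair term), and their median difference was 0.02.

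Upstream, the list of ERK, SRF and ETS partner genes had 2 higher and 4 lower of 13 measured (2 and 1 with the pair term), with a median of -0.10. Creb1, the factor at cAMP response elements, rose from 8.27 ± 0.18 to 8.94 ± 0.11, and Mrtfb, an SRF coactivator, rose by 0.35. Elk4, an ETS partner of SRF, fell by 0.51, and Rps6ka3, a kinase below ERK, differed by -0.26 (adjusted p = 0.00993, and 0.0655 with the pair term). Of 8 AP-1 genes, 1 was higher and 1 lower in both fits: Junb rose by 0.44 and Fosl2 fell by 0.43.

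Of 33 other primary response genes, 3 were higher and 10 lower (2 and 4 with the pair term), with a median of -0.13. Ptgs2, the inducible cyclooxygenase gene, fell from 10.08 ± 0.30 to 8.83 ± 0.23, Maff by 0.78, Plk3 by 0.40 and Phlda1 by 0.39. Of 5 measured MAPK phosphatase genes, whose products switch off MAP kinases, not all of them ERK, 3 were lower (2 with the pair term), with a median of -0.53. Dusp4 fell by 1.56 and Dusp10 by 0.89, and Dusp6 differed by -0.53 (adjusted p = 0.0323, and 0.117 with the pair term). Among 7 relatives of the members, Mycn rose by 0.21 and Ier5l fell by 0.25, and the rest did not pass.

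Downstream, Myc target genes had 10 lower and none higher of 19 (2 lower with the pair term), with a median of -0.18. The nucleolar genes Nop56 and Ncl fell by 0.49 and 0.68, and Npm1 (-0.11) and Ddx21 (-0.25) passed only without the pair term. Of 9 Myc partners and antagonists 3 were lower (1 with the pair term), and Mnt, a repressor that competes with Myc for Max, fell by 0.30 in both fits. Of 7 EGR targets, 2 were higher and 2 lower (1 lower with the pair term): F3, the tissue factor gene, fell from 8.01 ± 0.63 to 6.58 ± 0.72, and Fn1 (1.59) and Vegfa (0.58) passed only without the pair term. Of 13 AU-rich mRNAs, the kind that the protein of Zfp36 (tristetraprolin) binds and destabilises, 3 were higher and 5 lower (1 and 4 with the pair term). Besides Ptgs2, the chemokine gene Cxcl1 fell by 1.41. Il6 fell by 0.34 and passed in both fits, but at a level below 4.29, the upper quartile of nonspecific controls, in both groups. Il2 fell by 0.16, at a level (5.22 in WT and 5.06 in cKO tumours) below 6.17, the highest nonspecific control.

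**Figure D5:**
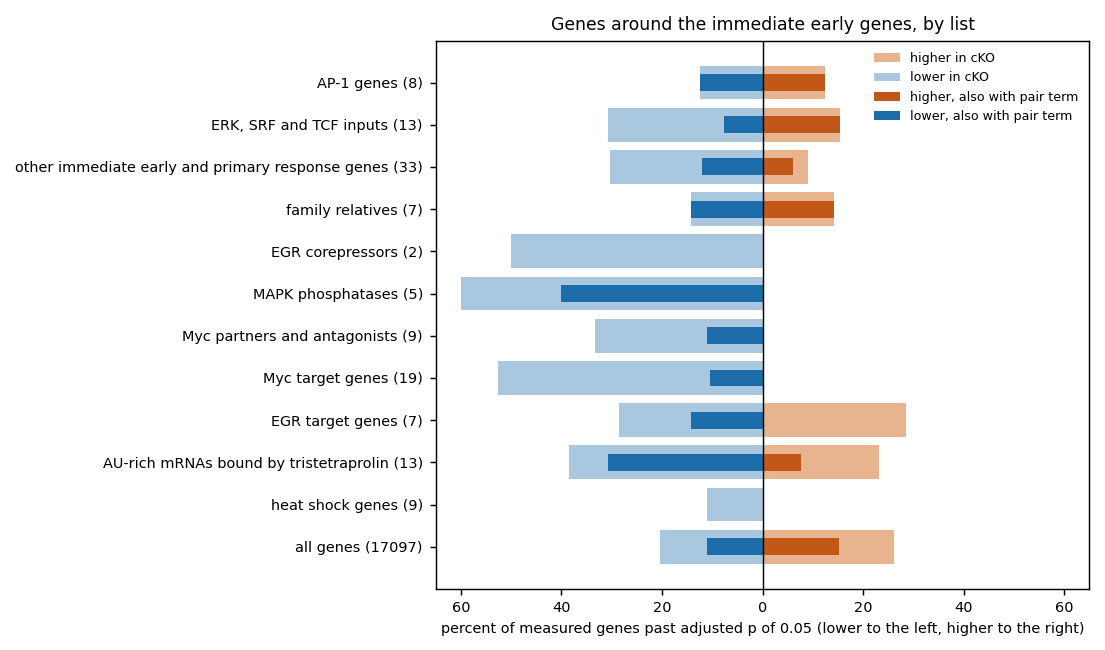
Percent of measured genes in each list past an adjusted p of 0.05 (limma), higher in cKO to the right and lower to the left; pale bars without a covariate, dark bars with the neighbouring-pair term, numbers of measured genes in brackets. For all genes the bars are 26.1% higher and 20.4% lower; the MAPK phosphatases, Myc targets, Myc partners, EGR corepressors and heat shock genes have calls on the lower side only.

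Markers of other cell types passed at shares above and below the 46.5% of all genes (26.2% with the pair term). Fibroblast markers were higher for 6 of 10 genes in either fit (list means of 5.73 to 6.33 in WT and of 6.65 to 7.16 in cKO tumours). Endothelial markers were higher for 6 of 8, and 5 with the pair term (4.24 to 5.56 and 5.65 to 6.17). Keratinocyte markers, at 40.0% called, had 1 higher and 3 lower of 10 (1 and 2 with the pair term; 10.14 to 10.78 and 9.95 to 11.05). Macrophage markers, at 44.4%, had 3 higher and 1 lower of 9 (2 and 0 with the pair term; 4.46 to 4.62 and 4.58 to 5.17). Of 6 T cell markers 2 were higher and 1 lower in either fit. Without the pair term 2 of 5 neutrophil markers and 1 of 3 B cell markers were higher, and with it 0 of either. Of 5 mast cell markers 3 were higher and 1 lower (1 and 0 with the pair term). Skeletal muscle markers had 1 higher of 5, and adipocyte markers 1 higher and 1 lower of 3, in either fit. The 3 higher mast cell markers lay below 4.29, the upper quartile of nonspecific controls, in both groups. So did 2 markers each of the macrophage, fibroblast and adipocyte lists. The endothelial, T cell, B cell, neutrophil and skeletal muscle lists had 1 each. The 2 macrophage markers, Adgre1 and Cd163, are among the 3 called higher without the pair term, and Adgre1 also passed with it. Heat shock genes, which respond to handling, had 0 higher and 1 lower of 9 (0 and 0 with the pair term; list means of 10.34 to 10.75 and 10.10 to 10.75). The part of these in the members' values was not tested, and in bulk tumours fewer cells of a type and less RNA per cell cannot be told apart. The 18 spiked hybridisation controls were higher on cKO arrays by 0.06 to 0.49, and nonspecific controls differed by -0.31 to 0.08. All 14 member differences, Ier2 and Nr4a2 included, are no larger in size than the largest control difference. Most probe sets share this: only 12.1% of all had a difference at least as large in size as the largest member difference, 0.46. On the lower side the controls reached only -0.31, and both Egr2 probe sets (-0.40 and -0.42) lay beyond that.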

How the data were processed

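The authors deposited RMA values on a log2 scale, 1 per probe set and array, with RMA named in the submitters' processing notes. No source used here gives its version, scan dates or a later adjustment. Per the labels' protocols, 25 ng of RNA was amplified in 17 cycles and 8 µg of cDNA was labelled with biotin. Of 45141 probe sets, 104 array controls were left out and 28898 have 1 gene symbol. Groups come from the sample titles. Array medians were 5.09 to 5.14, and correlations between arrays 0.968 to 0.996. The number of arrays limits the precision.

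Each probe set was tested with limma 3.58.1 in R 4.3.3 (lmFit, eBayes, two-sided), with Benjamini-Hochberg adjustment over 45037 probe sets. Neighbouring arrays with a correlation of deviations below -0.8 made a pair for the pair term. This definition was chosen after seeing the data: the arrays were first paired strictly in deposit order, and the pairs were changed when array weights and these correlations did not match that order. The first pairing is kept as an added alternative. The fitting script was tested on simulated data.

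The members and lists were chosen with earlier results of these data known. List genes were read by their brightest probe set. Named were all members, Ehmt2, up to 4 genes per pathway list and 3 per marker list by smallest p (used here only where a result turns on them), and the 2 genes most like each member. Alternatives were median centring, quantile normalization, filters at the 25th and 50th percentile, a trended robust prior, array weights, a replicate block, gene-level reading, and each array left out. Figures were drawn with matplotlib 3.10.9.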

Additional observations from a re-analysis of the deposited data

Results flagged for a closer look

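Egr3 in cKO replicate 9 stood apart from the rest of its group, at 7.73 against 7.21 to 7.42 on the other 6 cKO arrays. Chance gives about 1 such array in 20 groups, and 28 groups of values were looked at.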

How the results depend on the processing

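No member difference turned its direction in 315 comparisons with an alternative, and 292 stayed on the same side of the threshold. The 3 called member probe sets became 1 with the neighbouring-pair term, 6 with array weights (which gave cKO replicate 1 a weight of 60.7), and 1 of 9 genes, Ier2, by the brightest probe set or by the mean over probe sets. Pairs in strict deposit order, the pairing fitted first and added here after seeing the data, called 2 members, Ier2 (adjusted p = 0.0428) and Nr4a2 1433422_PM_at (0.00178), with 15924 calls over all probe sets and 36 in the lists; the pair term used in the text is the stricter of the pairings and removes the call of Ier2. Calls over all probe sets were 12169 with the pair term, 8955 with the replicate block and 9936 of 22519 above the 50th percentile, and at gene level 7830 by the brightest probe set and 7884 by the mean. Called genes in the pathway lists went from 51 to 23 with the pair term and 27 with the replicate block. With each array left out, the members called ranged from 2 to 4, all calls from 19362 to 20914 and list calls from 44 to 52. Same-numbered arrays did not deviate together (r of -0.283 to 0.0536), so the replicate block reflects a shared number only; Nr4a2 1433422_PM_at kept its call under it (0.49, adjusted p = 0.0114). That probe set passed in all 22 alternatives (0.42 to 0.51) and Ier2 in 22 of 23 (0.39 to 0.64, adjusted p of 0.000389 to 0.0714), whereas Nr4a2 1433423_PM_at passed in 9 of 21 (0.18 to 0.29), losing its call without WT replicate 2, 6, 7 or 8 or cKO replicate 1, 3, 5, 6 or 9. Egr1 passed only with array weights (0.19, adjusted p = 0.0345). The cause of these changes was not tested.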
